A study of Mus musculus with 8 samples.

Results

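E14 mouse embryonic stem cells (ESCs) in which Cdk9 had been knocked down (Cdk9-KD) were set directly against E14 ESCs labelled as hnRNPK knockdown (hnRNPK-KD), with no control library in the contrast. Each arm held 2 RNA-seq libraries, so 4 of the 8 libraries of the series belonged to it, and they were chosen by their labels alone. All libraries came from E14Tg2A cells grown on gelatin with LIF, CHIR99021 and PD0325901, infected with a lentivirus carrying an shRNA, and selected with puromycin. A scrambled-shRNA control and a Sox2-KD group, also with 2 libraries each, entered the fit only to estimate the spread between replicates and are quoted as reference levels. The sources give biological duplicates but not which of the 2 shRNAs per gene each library received. The RNA is of whole infected cultures, so fewer cells with a transcript and less of it per cell cannot be told apart.

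CDK9 is the kinase of P-TEFb, which it forms with a T-type cyclin. P-TEFb phosphorylates the RNA polymerase II tail and the pausing factors and so releases paused polymerase into elongation, and 7SK RNA with the proteins HEXIM, LARP7 and MEPCE keeps part of it inactive. hnRNPK is a KH-domain protein that binds C-rich RNA and DNA and acts in splicing, transcription and RNA stability. Comparing the 2 knockdowns with each other asks which transcripts separate loss of the elongation kinase from loss of the RNA-binding protein, both carrying the same viral backbone and selection.

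The shRNA target sites show where each transcript was attacked. They are printed 5′ to 3′ on the sense strand, from the study's oligonucleotide list, with the bases paired to the guide strand's seed (its bases 2 to 8) in capitals:
Cdk9 shRNA1: ggacatgaaggctGCGAATGt
Cdk9 shRNA2: gcatgctgtctacTCACTTGa
Hnrnpk shRNA1: cggattaaacaaaTTCGTCAt
Hnrnpk shRNA2: gggttcagtgctgATGAAACt
All 4 matched coding sequence of their gene. On GRCm38 (GENCODE vM21) the Cdk9 sites lay on the minus strand at chr2:32709913-32709933, in exon 5 of 7 of the longest coding transcript with the site, and at chr2:32708046-32708066, in its exon 7. The Hnrnpk sites lay on the minus strand at chr13:58393312-58393332, in exon 17 of 18, and at chr13:58394136-58394156, in exon 14. The Cdk9 sites occurred in no other annotated gene, whereas the Hnrnpk sites also matched a near-identical gene copy, Gm7964, and site 2 in addition Gm4130. Reads of such copies can be split or dropped in counting, so the level of Hnrnpk carries that uncertainty.

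Cdk9 separated the arms, and Hnrnpk did not. Levels are CPM, read counts scaled to the library's total with TMM factors, and a log2 fold change (log2FC) is Cdk9-KD minus the libraries labelled hnRNPK-KD. Cdk9 read 73.1 and 53.2 CPM in Cdk9-KD replicates 1 and 2, against 110.3 and 123.6 CPM in the other arm. The control libraries held 108.7 and 129.1 CPM, so both Cdk9-KD libraries lay below all others. The means were 63.1 ± 14.1 CPM (SD, n = 2) and 117.0 ± 9.39 CPM (SD, n = 2), and the log2FC was -0.89 (SE 0.18, adjusted p = 0.34 by the edgeR quasi-likelihood test). The adjusted p of Cdk9 was 0.00614 by the likelihood ratio test and 0.00482 by DESeq2. Hnrnpk read 996 and 1094 CPM in Cdk9-KD. In the arm labelled hnRNPK-KD it read 697 and 1144 CPM, beside 1094 and 1131 CPM in the control.

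The library labelled hnRNPK-KD 2 therefore went against its label, since it held no less Hnrnpk than the control libraries, while that labelled hnRNPK-KD 1 lay below all 7 others. The log2FC of Hnrnpk was 0.18 (SE 0.20, adjusted p = 0.94 by edgeR). It was 0.58 without the library labelled hnRNPK-KD 2 and -0.15 without that labelled hnRNPK-KD 1. Values without replicate 2 are therefore given below for some lists and genes. For named genes whose sign turned, the range with 1 library left out is given at the end.

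**Figure D1:**
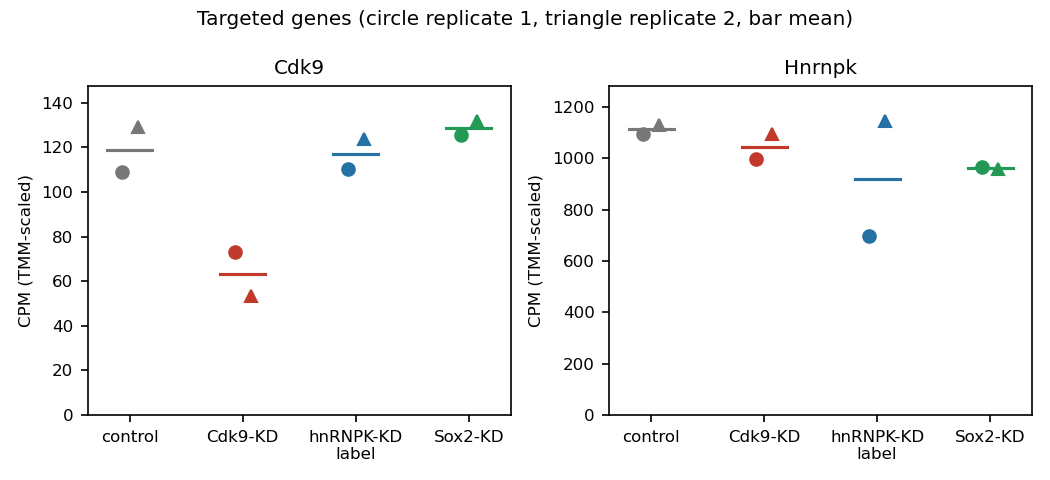
CPM of Cdk9 (left) and Hnrnpk (right) in each of the 8 libraries by group, with a bar at the mean of each pair. Cdk9 is lowest in both Cdk9-KD libraries at 73.1 and 53.2 CPM, and Hnrnpk is low only in the library labelled hnRNPK-KD 1 at 697 CPM.

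The cells of both arms had the ESC profile of their label. The 12 ESC markers, Pou5f1, Nanog and Esrrb among them, summed to 8045 to 9505 CPM, and of 10 fibroblast or feeder markers 6 had at most 3 counts in each of the 4 libraries, with a sum of 3.90 to 7.42 CPM. Trophectoderm markers summed to 65.0 to 72.4 CPM in 3 libraries and to 113 CPM in that labelled hnRNPK-KD 2, where Cdx2 had 1463 counts against 346 to 490 in the other three. The 4 libraries held 16902517 to 17719366 counts. They did not group by label: the median absolute log2 difference between libraries was 0.28 within Cdk9-KD and 0.22 within the hnRNPK-KD label, while between arms it ran from 0.21 to 0.30, and the closest pair of all was Cdk9-KD 2 and the library labelled hnRNPK-KD 2. The first principal component of the 4 libraries held 40.1% of the variance and set Cdk9-KD 1 apart from the other three.

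No gene was called between the arms. Of 16504 genes tested, 0 (0%) passed an adjusted p under 0.05 with an absolute log2FC over 0.6 in the quasi-likelihood test, and the smallest adjusted p was 0.136, for Mylpf. At an unadjusted p under 0.05 there were 943 genes where 825.2 would be counted without any difference, 565 of them with higher levels in Cdk9-KD (3.42% of the genes tested) and 378 with lower levels (2.29%). The same fit called 1210 genes (7.33%) between Sox2-KD and Cdk9-KD and 974 genes (5.90%) between Sox2-KD and the hnRNPK-KD label. The likelihood ratio test called 67 genes (0.406%), the exact test of edgeR 49 (0.297%) and DESeq2 56 of 14584 (0.384%). These tests shared 41 genes, 10 higher and 31 lower in Cdk9-KD, with Cdk9 among the latter. Both Cdk9-KD libraries lay above both libraries labelled hnRNPK-KD in 17.4% of genes and below them in 14.3%. For a single gene, an exact permutation of 2 against 2 cannot go below p = 0.333. The p-values measure the spread between duplicates, estimated over all 4 groups, and no wider variation. With only the 4 libraries of the arms in the fit, the smallest adjusted p by edgeR was 0.418.

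**Figure D2:**
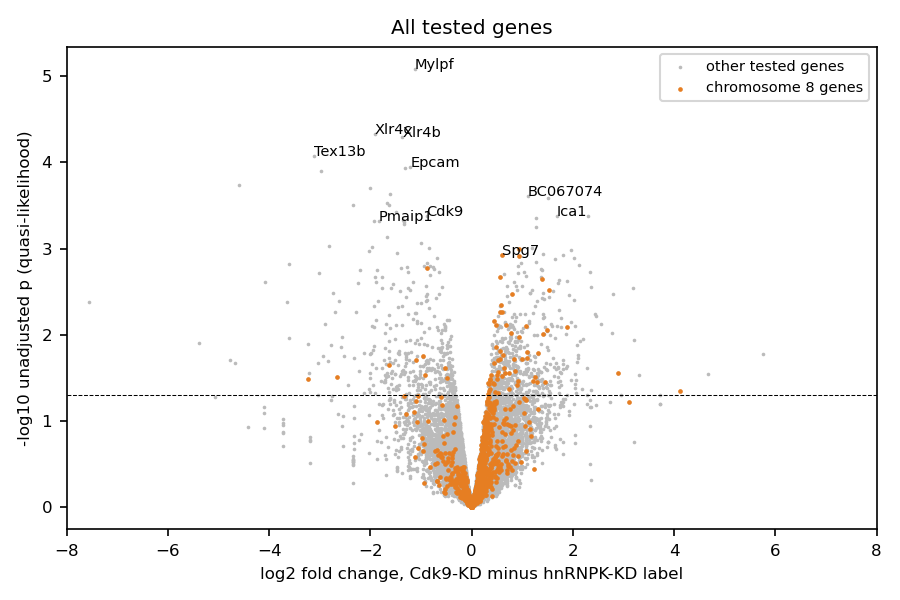
Log2FC (x axis, Cdk9-KD minus hnRNPK-KD label) against -log10 of the unadjusted edgeR quasi-likelihood p (y axis) for all 16504 genes. Chromosome 8 genes are orange, and the dashed line marks the limit of 0.05. Mylpf stands highest, and the chromosome 8 genes lie mostly to the right of 0.

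The 10 genes leading on the lower side, none of them called, were Mylpf, Xlr4c, Xlr4b, Tex13b, Epcam, Map3k5, Platr15, AI662270, Nefl and Dpp4. Their log2FC ran from -1.12 to -3.12, and the first 7 were the only genes with an adjusted p under 0.3. By log2FC against the control, 9 of the 10 lay farther from it in Cdk9-KD than in the hnRNPK-KD label, and Mylpf was the exception.

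Mylpf, which encodes the regulatory light chain of fast-muscle myosin (chr7:127208890-127214298, plus strand), read 84.2 and 81.8 CPM in Cdk9-KD and 167 and 194 CPM in the libraries labelled hnRNPK-KD. The control libraries, at 124 and 119 CPM, lay between the arms, so the gap came from both sides. Its log2FC was -1.12 (SE 0.14, adjusted p = 0.136 by edgeR). Epcam, the epithelial adhesion glycoprotein (chr17:87635979-87651129, plus strand), read 53.5 and 38.0 CPM against 93.3 and 119 CPM, with the control at 75.7 and 87.7 CPM. Here too the control lay between the arms, and the log2FC was -1.21 (SE 0.20, adjusted p = 0.297 by edgeR). Nefl, the neurofilament light chain, had the same order, with 26.6 and 11.4 CPM in Cdk9-KD, 37.2 and 35.6 CPM in the control and 59.6 and 57.2 CPM in the libraries labelled hnRNPK-KD.

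Dpp4, a cell-surface peptidase, read 7.83 and 17.4 CPM in Cdk9-KD against 36.5 and 43.6 CPM. Map3k5, the stress kinase ASK1, read 10.5 and 8.63 CPM against 27.6 and 19.7 CPM. The log2FC was -1.67 for Dpp4, whose Cdk9-KD duplicates were themselves wide apart, and -1.31 for Map3k5. Platr15, a long noncoding RNA with expression tied to pluripotency, read 3.10 and 1.24 CPM against 21.3 and 12.9 CPM (control 12.2 and 12.4 CPM), and AI662270 read 7.13 and 2.90 CPM against 23.8 and 16.5 CPM. In each both Cdk9-KD libraries lay under both control libraries.

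The remaining 3 of the 10, Tex13b, Xlr4b and Xlr4c, lie on the X chromosome and belong to families known from testis or lymphoid cells. Tex13b read 0.935 and 0.414 CPM in Cdk9-KD, 7.45 and 4.42 CPM in the arm labelled hnRNPK-KD and 7.32 and 5.38 CPM in the control. Xlr4b read 4.91 and 4.67 CPM against 12.5 and 12.2 CPM, with the control at 14.5 and 15.1 CPM. Xlr4c read 2.75 and 1.72 CPM against 8.15 and 8.73 CPM, with the control at 10.5 and 9.91 CPM. Duplicates of Xlr4b were close to each other, those of Xlr4c in Cdk9-KD less so, and the arms were apart by a log2FC of -1.37 (SE 0.21) and -1.92 (SE 0.29), each with an adjusted p of 0.28 by edgeR.

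The Xlr3, Xlr4 and Xlr5 genes are related copies in one X-linked cluster. Promoter windows (250 bases before to 50 after the start, RefSeq, GRCm38.p6) are printed for the Xlr4 pair among the leading genes. They lie mostly outside the transcript, so their likeness does not show how reads were assigned. Capitals mark the CCAAT box, searched as CCAAT and ATTGG on both strands:
Xlr4b, chrX:73214083-73214382, plus strand: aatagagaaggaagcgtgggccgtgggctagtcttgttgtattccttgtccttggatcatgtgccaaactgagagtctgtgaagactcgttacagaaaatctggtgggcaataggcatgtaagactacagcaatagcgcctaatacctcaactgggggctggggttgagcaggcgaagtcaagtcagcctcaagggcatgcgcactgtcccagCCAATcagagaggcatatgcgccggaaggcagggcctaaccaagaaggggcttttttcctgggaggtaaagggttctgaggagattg
Xlr4c, chrX:73243081-73243380, minus strand: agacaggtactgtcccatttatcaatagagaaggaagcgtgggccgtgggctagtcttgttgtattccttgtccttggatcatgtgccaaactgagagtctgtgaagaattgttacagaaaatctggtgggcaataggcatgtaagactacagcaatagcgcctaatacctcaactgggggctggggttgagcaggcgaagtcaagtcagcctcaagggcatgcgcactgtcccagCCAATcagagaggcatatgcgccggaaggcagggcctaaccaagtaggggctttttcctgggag
Over the 278 aligned positions of these windows 98.6% of the bases were identical, and the Xlr4a window had 98.3% and 98.1% identity with them. The Xlr3c window aligned with those of Xlr4a, Xlr4b and Xlr4c over only 3, 15 and 88 positions, with 58.0% identity over the longest. Near-identity was thus seen among the Xlr4 windows only, and no Xlr5 window was compared. The CCAAT box occurred once in each of the Xlr4a, Xlr4b and Xlr4c windows and 3 times in that of Xlr3c. Of all 32851 promoter windows, 37.4% hold it on either strand. Xlr4a read 8.88 and 14.0 CPM in Cdk9-KD against 18.1 and 16.7 CPM. Xlr3c, outside the rule for leading genes and picked after its values were seen, lay lower in both Cdk9-KD libraries than in those labelled hnRNPK-KD, at 63.9 and 67.2 CPM in the latter, with a log2FC of -1.64 (SE 0.31). Among the 9 tested Xlr genes, likewise looked up after the leading ones were seen, all 9 had a negative log2FC, from -0.20 for Xlr3a to -1.94 for Xlr5b, and 6 did not overlap between the arms, where 14.3% of all genes did not overlap in that direction. Whether reads of related copies were counted separately was not tested, so the 9 cannot be taken as 9 independent measurements.

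**Figure D3:**
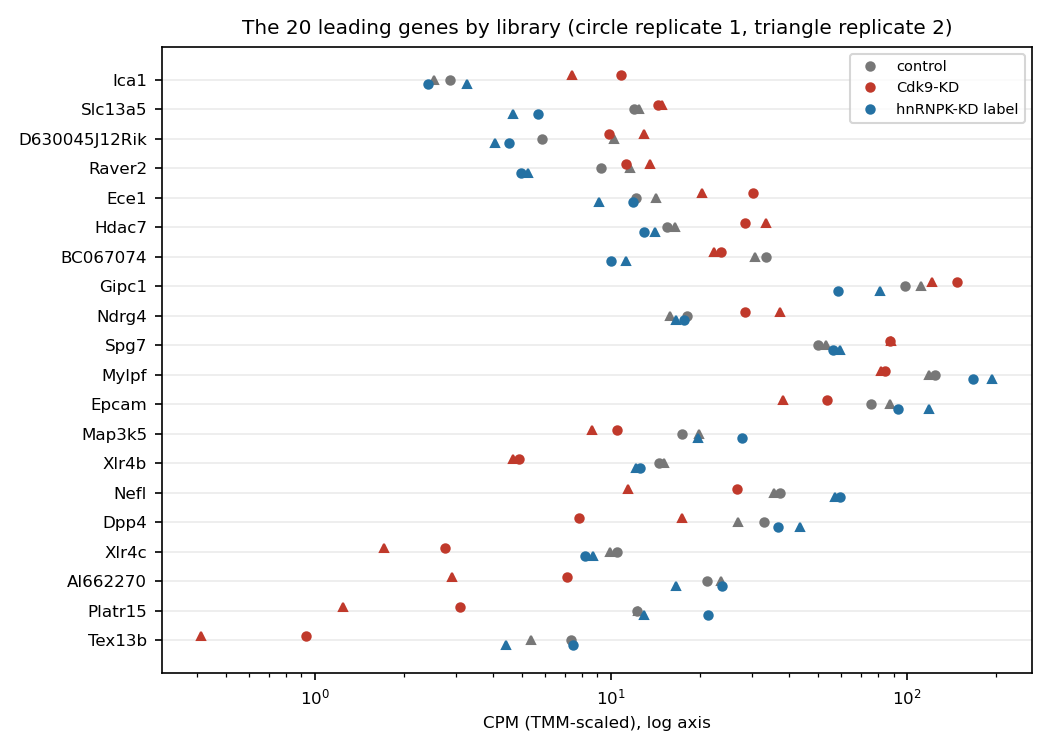
CPM (log axis) of the 20 leading genes in the Cdk9-KD, hnRNPK-KD label and control libraries, sorted by log2FC. The arms do not overlap in any row, which the rule for these genes required, and the control points show which arm lies farther from them.

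The 10 genes leading on the higher side, none of them called, were BC067074, Slc13a5, Ica1, Raver2, Ece1, Hdac7, Gipc1, D630045J12Rik, Spg7 and Ndrg4. Their log2FC ran from 0.60 to 1.68, with an adjusted p from 0.34 to 0.48. By log2FC against the control, 5 of the 10 lay farther from it in Cdk9-KD and the other 5 in the hnRNPK-KD label.

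Slc13a5, a sodium-coupled citrate transporter, was of the latter kind. It read 14.4 and 14.9 CPM in Cdk9-KD and 5.69 and 4.66 CPM in the libraries labelled hnRNPK-KD, with 11.9 and 12.4 CPM in the control and a log2FC of 1.50 (SE 0.28). Raver2, a partner of the splicing repressor PTB, read 11.3 and 13.5 CPM against 4.98 and 5.24 CPM, with the control at 9.29 and 11.6 CPM. BC067074 read 23.5 and 22.4 CPM against 9.97 and 11.2 CPM, and here the control, at 33.3 and 30.5 CPM, lay above both arms. In these 3 genes both libraries labelled hnRNPK-KD lay under the control, replicate 2 with its control-like Hnrnpk included. The same held for D630045J12Rik (9.81 and 12.9 against 4.51 and 4.07 CPM) and for Gipc1, a PDZ adaptor protein (147 and 121 against 58.6 and 81.2 CPM).

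Ica1, a protein of secretory-vesicle traffic, read 10.8 and 7.39 CPM in Cdk9-KD against 2.40 and 3.26 CPM, with 2.87 and 2.52 CPM in the control. Hdac7, a class IIa histone deacetylase, read 28.4 and 33.4 CPM against 12.9 and 14.1 CPM (control 15.5 and 16.5 CPM). Ece1, the endothelin-converting enzyme, read 30.1 and 20.2 CPM against 11.8 and 9.14 CPM. In these 3 the Cdk9-KD libraries stood above all others of the 2 arms and the control. Spg7, a subunit of a mitochondrial protease, read 87.5 and 87.9 CPM against 56.3 and 59.2 CPM, and Ndrg4 28.3 and 37.2 CPM against 17.6 and 16.6 CPM. Gipc1, Spg7 and Ndrg4 are chromosome 8 genes.

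Chromosome 8 as a whole stood apart in 1 library. Over its 853 tested genes the median log2FC was 0.15, 71.2% of them were positive, and 29.4% did not overlap in the higher direction against 6.80% in the lower one (17.4% and 14.3% of all genes). At an unadjusted p under 0.05 it held 59 genes higher and 9 lower in Cdk9-KD. The median deviation of chromosome 8 genes from the 8-library mean was 0.20 on the log2 scale in Cdk9-KD 2 and between -0.063 and 0.00086 in the other 7 libraries. The median log2FC was 0.0019 without Cdk9-KD 2 and 0.24 without Cdk9-KD 1. Chromosome 8 made up 5.17% of genes tested and 10.4% of those with a higher level at an unadjusted p under 0.05, and without its genes those numbered 506 higher and 369 lower. Without Cdk9-KD 2 the log2FC was 0.60 for Spg7, 1.07 for Gipc1 and 0.73 for Ndrg4, with a sign that the rule for these genes fixes.

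Transcript GC content moved with the other Cdk9-KD library. From the lowest to the highest of 5 equal bins of genes by GC content, the median log2FC went from -0.098 to 0.12. The deviation from the 8-library mean went from -0.17 to 0.15 in Cdk9-KD 1, and the opposite way in Cdk9-KD 2, from 0.12 to -0.069, and in the library labelled hnRNPK-KD 1, from 0.14 to -0.077. Without Cdk9-KD 1 the median log2FC was 0.017 in the lowest bin and -0.033 in the highest. Among genes at an unadjusted p under 0.05, 196 of the higher and 52 of the lower ones were in the highest bin. The part of chromosome 8 and of GC content in the results for single genes was not tested, beyond the refits given at the end.

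**Figure D4:**
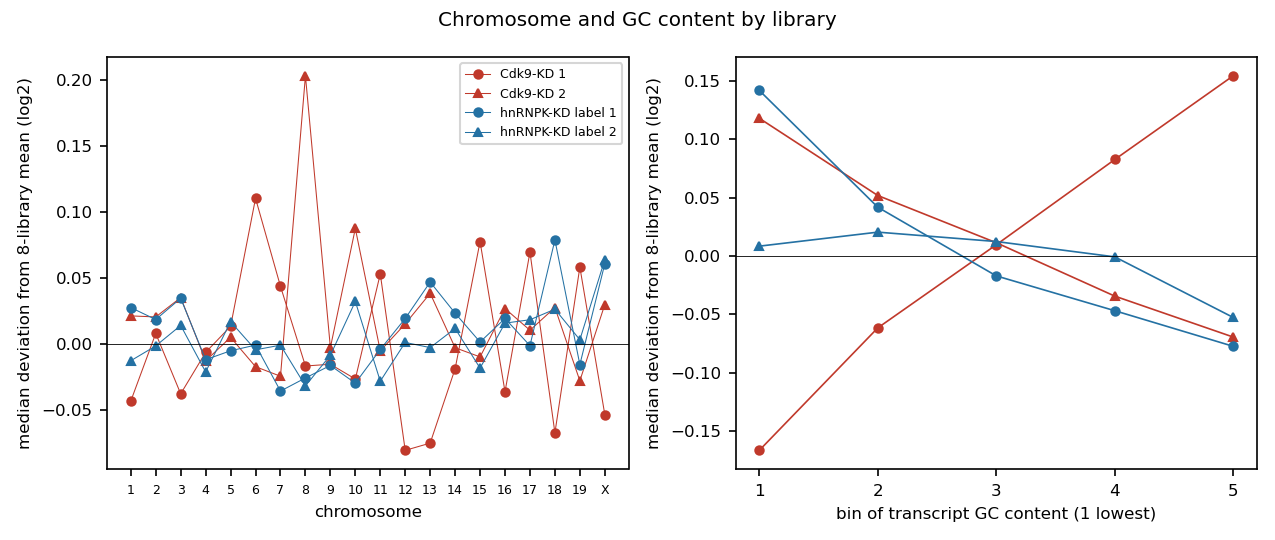
Median deviation from the 8-library mean (log2) of genes by chromosome (left) and by bin of transcript GC content (right), for the 4 libraries compared. Cdk9-KD 2 reaches 0.20 on chromosome 8, and Cdk9-KD 1 runs from -0.17 to 0.15 over the GC bins.

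Among the genes of P-TEFb, the 7SK particle and the super elongation complex, 17 of 18 were tested, with 0 called. At an unadjusted p under 0.05, 4 lay lower in Cdk9-KD and 0 higher (2.29% and 3.42% of all genes), Cdk9 being one of the 4. Larp7, the 7SK-binding protein that holds the particle together, read 101 and 99.2 CPM in Cdk9-KD. It read 140 and 127 CPM in the arm labelled hnRNPK-KD and 132 and 138 CPM in the control (log2FC -0.42, SE 0.13, adjusted p = 0.74 by edgeR). The Cdk9-KD duplicates were close to each other and lay below the other libraries. Hexim1, which binds and inhibits P-TEFb, read 77.3 and 70.0 CPM against 98.1 and 88.4 CPM, but the control, at 65.2 and 63.6 CPM, lay under both arms. Mllt3 (AF9), a reader of acylated histones in the super elongation complex, read 18.2 and 18.7 CPM against 31.9 and 30.4 CPM (log2FC -0.75, SE 0.27).

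The cyclin partners and scaffold genes overlapped between arms. Ccnt1 read 105 and 164 CPM in Cdk9-KD against 163 and 131 CPM, and Ccnt2 162 and 259 CPM against 241 and 226 CPM. The Cdk9-KD duplicates themselves were thus on either side of the other arm. The log2FC was -0.13 for Ccnt1, -0.15 for Ccnt2 and Aff4, -0.11 for Mepce, 0.10 for Aff1 and 0.038 for Mllt1. It was 0.025 for Hexim2, -0.031 for Ell2 and -0.026 for Eaf1. Ell, at 35.6 and 34.1 CPM against 30.4 and 30.0 CPM, is on chromosome 8. Ell3 and Eaf2 were near 1 CPM, with log2FC values of 0.58 and 0.74 and SEs of 0.61 and 0.48.

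Other elongation genes showed no larger gaps. Of 21 genes for NELF, DSIF, PAF1 and related factors 15 were negative. Of the 21, 8 did not overlap in the lower direction and 3 in the higher one (14.3% and 17.4% of all genes). The median log2FC was -0.10, and -0.15 to -0.071 with 1 library left out, but 0 genes passed an unadjusted p under 0.05. Cdc73, a PAF1 subunit, had the smallest p and read 97.5 and 140 CPM against 166 and 130 CPM. Of 13 genes for the other transcription kinases and their cyclins 1 passed it, on the lower side (2.29% of all genes). It was Cdk12, a kinase of elongating polymerase, at 122 and 136 CPM in Cdk9-KD against 178 and 168 CPM. The control read 119 and 135 CPM, and the log2FC was -0.42 (SE 0.14, adjusted p = 0.75 by edgeR). Cdk12 thus lay at the control level in Cdk9-KD and above it in both libraries labelled hnRNPK-KD.

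On the hnRNPK side, the 4 related KH-domain genes Pcbp1 to Pcbp4 overlapped between arms. Pcbp1 had a log2FC of 0.052, Pcbp2 of 0.073 and Pcbp4 of -0.025. Pcbp3 read 8.59 and 7.57 CPM in Cdk9-KD and 3.17 and 8.26 CPM in the libraries labelled hnRNPK-KD, its low value falling in replicate 1, which was also low for Hnrnpk. Of 28 other hnRNP and related genes 0 passed an unadjusted p under 0.05, with a median log2FC of -0.074 that was -0.0020 without Cdk9-KD 1 and -0.22 without Cdk9-KD 2. Hnrnpa3 had the smallest p, at 1551 and 1941 CPM against 2075 and 2159 CPM. Of 31 SR-protein and splicing genes 1 passed an unadjusted p under 0.05, on the lower side (2.29% of all genes). It was the SR kinase Clk4, at 40.7 and 46.7 CPM against 61.9 and 57.5 CPM, where the control read 45.3 and 34.3 CPM.

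Over all 36 gene lists 0 members were called, and the medians of 24 lists were negative. Below, genes other than the one with the smallest p of each list were picked after their values were seen. The amino-acid and unfolded-protein response list (ATF4 targets) had the most uniform direction, with 23 of 24 tested genes positive. Of these, 10 did not overlap in the higher direction and 0 in the lower one (17.4% and 14.3% of all genes), 4 passed an unadjusted p under 0.05 on the higher side (3.42% of all genes), and the median log2FC was 0.30 where that of all genes was 0.0076. It stayed between 0.19 and 0.38 when any 1 of the 4 libraries was left out. Phgdh, the first enzyme of serine synthesis, read 98.8 and 82.9 CPM in Cdk9-KD against 33.7 and 65.5 CPM, with 89.6 and 62.7 CPM in the control (log2FC 0.87, SE 0.28, adjusted p = 0.74 by edgeR). Both Cdk9-KD libraries lay above the other arm and near the control, while 1 library labelled hnRNPK-KD lay under the control. Slc7a5 and Slc3a2, the 2 chains of the large neutral amino-acid transporter, read 202 and 231 against 144 and 167 CPM, and 169 and 169 against 130 and 130 CPM. Ddit3 (CHOP), the stress transcription factor, read 12.5 and 11.9 CPM against 7.21 and 7.62 CPM. Atf4 itself, at 306 and 221 CPM against 271 and 239 CPM, overlapped between arms. The list's median was 0.11 for Cdk9-KD against control and -0.18 for the hnRNPK-KD label against control, 2 contrasts that share the control libraries.

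Cholesterol and fatty-acid synthesis genes leaned the other way. Of 32 tested, 26 were negative, 14 did not overlap in the lower direction and 0 in the higher one (14.3% and 17.4% of all genes). On the lower side 5 passed an unadjusted p under 0.05 (2.29% of all genes), with a median log2FC of -0.25. Hmgcs1, an early enzyme of sterol synthesis, read 199 and 256 CPM in Cdk9-KD against 363 and 297 CPM (control 277 and 180 CPM), and Insig1, which restrains the pathway, 69.0 and 60.9 CPM against 86.2 and 114 CPM (control 96.0 and 52.9 CPM). The 2 control libraries were themselves far apart. The median was -0.062 without the library labelled hnRNPK-KD 2 and between -0.25 and -0.36 without any one of the other three.

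Immediate-early genes, which are controlled in part at pause release, had the highest median of the lists at 0.39, with 13 of 19 positive. Of the 19, 4 (21.1%) did not overlap in the higher direction, near the 17.4% of all genes, and 2 lay higher at an unadjusted p under 0.05 (3.42% of all genes). The median was 0.065 without Cdk9-KD 1 and 0.22 to 0.40 without any one of the others. Ier2 read 123 and 87.0 CPM in Cdk9-KD against 62.7 and 85.8 CPM and is a chromosome 8 gene. Fos, Jun and Atf3 overlapped between the arms. The MYC network list was negative in 16 of 20 genes with 0 at an unadjusted p under 0.05 and a median of -0.17, which was -0.067 without the library labelled hnRNPK-KD 2. Npm1, a nucleolar chaperone, had its smallest p, at 2754 and 3091 CPM against 3923 and 3503 CPM.

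Of 23 p53 targets, 4 lay lower in Cdk9-KD at an unadjusted p under 0.05 and 0 higher (2.29% and 3.42% of all genes). Of the 23, 3 did not overlap in the lower direction, a share below the 14.3% of all genes. Pmaip1 (NOXA), a pro-apoptotic BH3-only protein that is also on the BCL2-family list, read 8.24 and 4.20 CPM in Cdk9-KD against 27.0 and 17.3 CPM, with 20.6 and 12.9 CPM in the control (log2FC -1.83, SE 0.37, adjusted p = 0.34 by edgeR). Both Cdk9-KD libraries lay under all others. For Ccng1 and Trp53inp1 the libraries labelled hnRNPK-KD lay on either side of Cdk9-KD. Ccng1 read 861 CPM in the library labelled hnRNPK-KD 1 and 338 CPM in replicate 2, against 507 and 411 CPM in Cdk9-KD, and Trp53inp1 read 866 and 343 CPM against 445 and 400 CPM. The list summed to 3810 CPM in the library labelled hnRNPK-KD 1, which was also the one with low Hnrnpk, and to 2435 to 2865 CPM in the other three. Its median log2FC was -0.15, 0.086 without that library and -0.48 without replicate 2. Of the 19 BCL2-family genes Pmaip1 was the only one at an unadjusted p under 0.05 (2.29% of all genes were lower). Of 25 G1 genes Cdkn2a was the only one (3.42% of all genes were higher). Its log2FC was 0.70 (SE 0.26), with no overlap between arms.

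Of 27 naive pluripotency genes tested, 16 were positive, 10 did not overlap in the higher direction and 2 in the lower one (17.4% and 14.3% of all genes). The median was 0.10, and 0.027 without Cdk9-KD 1. Klf2, a naive-state transcription factor, read 266 and 254 CPM in Cdk9-KD against 168 and 176 CPM, with 157 and 186 CPM in the control (log2FC 0.59, unadjusted p = 0.0055 by edgeR). Tcl1 read 84.3 and 73.6 CPM against 57.2 and 62.7 CPM. Gbx2, a LIF-responsive homeobox gene also on the LIF list, went the other way, with 21.8 and 18.0 CPM against 36.0 and 35.7 CPM. The control lay between at 25.1 and 27.0 CPM, and the log2FC was -0.85 (SE 0.19, adjusted p = 0.48 by edgeR). Pou5f1 and Nanog had log2FC values of 0.23 and -0.029. Among 19 formative genes 3 lay lower at an unadjusted p under 0.05 (2.29% of all genes), and the median of -0.11 was 0.069 without the library labelled hnRNPK-KD 2. One of the 3 was Dnmt3b, a de novo DNA methyltransferase, at 94.8 and 114 CPM against 164 and 131 CPM.

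The BMP list held gaps on both sides, 2 higher and 3 lower at an unadjusted p under 0.05 of 19 (3.42% and 2.29% of all genes). Bmp4, a ligand, also on the WNT list, read 88.3 and 87.8 CPM in Cdk9-KD against 49.2 and 71.5 CPM, and every one of these 4 libraries lay above the control at 17.4 and 27.6 CPM. Smad6, an inhibitory SMAD of the pathway, read 1.64 and 0.946 CPM against 4.57 and 6.05 CPM, with the control at 4.84 and 5.50 CPM (log2FC -2.03, SE 0.46, adjusted p = 0.48 by edgeR). Chrd, a BMP antagonist, read 6.31 and 3.78 CPM against 2.11 and 1.69 CPM. Bmp2, another ligand, went the opposite way to Bmp4, at 0.759 and 1.01 CPM against 2.64 and 2.15 CPM. Msx2 also lay lower, at 1.11 and 1.83 CPM against 5.04 and 4.13 CPM. These genes were thus each apart between the arms in their duplicates, in differing directions, also between the ligands Bmp4 and Bmp2. In the NODAL list 1 of 18 genes, Nodal itself, reached an unadjusted p under 0.05. Its log2FC was 0.50 (SE 0.21), and 0.22 without the library labelled hnRNPK-KD 2. Of 19 FGF-ERK genes 1 lay higher at that level and 1, the receptor Fgfr2, lower at 0.175 and 0.591 CPM against 1.47 and 0.931 CPM.

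Lineage lists were mixed. Tfap2c, a trophectoderm and germ-cell transcription factor, read 13.1 and 7.81 CPM in Cdk9-KD, 32.5 and 17.5 CPM in the arm labelled hnRNPK-KD and 43.4 and 43.0 CPM in the control (log2FC -1.25, SE 0.31, adjusted p = 0.48 by edgeR). All 4 libraries lay under the control, Cdk9-KD more so. Eomes, a T-box factor of trophectoderm and mesendoderm, read 19.5 and 14.3 CPM against 8.09 and 7.92 CPM, with 3.83 and 2.58 CPM in the control. In the trophectoderm list 2 of 19 lay higher and 4 lower at an unadjusted p under 0.05 (3.42% and 2.29% of all genes). The median was -0.018, and without the library labelled hnRNPK-KD 1 it was 0.31, against -0.33 without replicate 2. Peg10, an imprinted gene of retroviral origin on that list and the imprinted one, read 92.8 and 216 CPM against 225 and 767 CPM. Its duplicates thus differed more than 2 fold within each arm. The log2FC was -1.68, and -0.55 without the library labelled hnRNPK-KD 2. In the imprinted list 2 of 27 lay lower at an unadjusted p under 0.05 and 0 higher (2.29% and 3.42% of all genes). The median of the imprinted list was -0.075, and 0.047 without the library labelled hnRNPK-KD 2. Kdr, a receptor of mesoderm, read 1.87 and 1.54 CPM against 4.40 and 4.60 CPM. Gata4, of primitive endoderm, read 2.51 and 1.77 CPM against 0.762 and 0.698 CPM.

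The 2-cell list had the lowest median, -0.96, with 17 of 20 negative but 0 at an unadjusted p under 0.05 and 0 not overlapping in the lower direction. The sign hung on the library labelled hnRNPK-KD 1: without it the median was 1.76, and without replicate 2 it was -1.75. Gm5662 showed the pattern, with 0.643 and 0.355 CPM in Cdk9-KD against 3.52 and 0.582 CPM. Apart from Eif1a, no tested member of the list read above 3.52 CPM in either arm, so the median rests on few counts per gene. Of 34 germline genes 4 lay lower at an unadjusted p under 0.05 (2.29% of all genes), Tex13b and Hormad1 with Xlr5a and Xlr5b. The median was -0.084, and it ran from -0.67 without Cdk9-KD 1 to 0.39 without the library labelled hnRNPK-KD 1. In the interferon list 1 of 24 tested genes lay higher and 1 lower at an unadjusted p under 0.05 (3.42% and 2.29% of all genes). Oas1a, an antiviral 2′-5′ oligoadenylate synthetase, read 28.4 and 24.1 CPM against 45.5 and 47.2 CPM, with 53.2 and 61.9 CPM in the control. Ifit2 read 0.701 and 1.01 CPM against 0.117 and 0.0582 CPM, levels at which few counts set the gap.

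**Figure D5:**
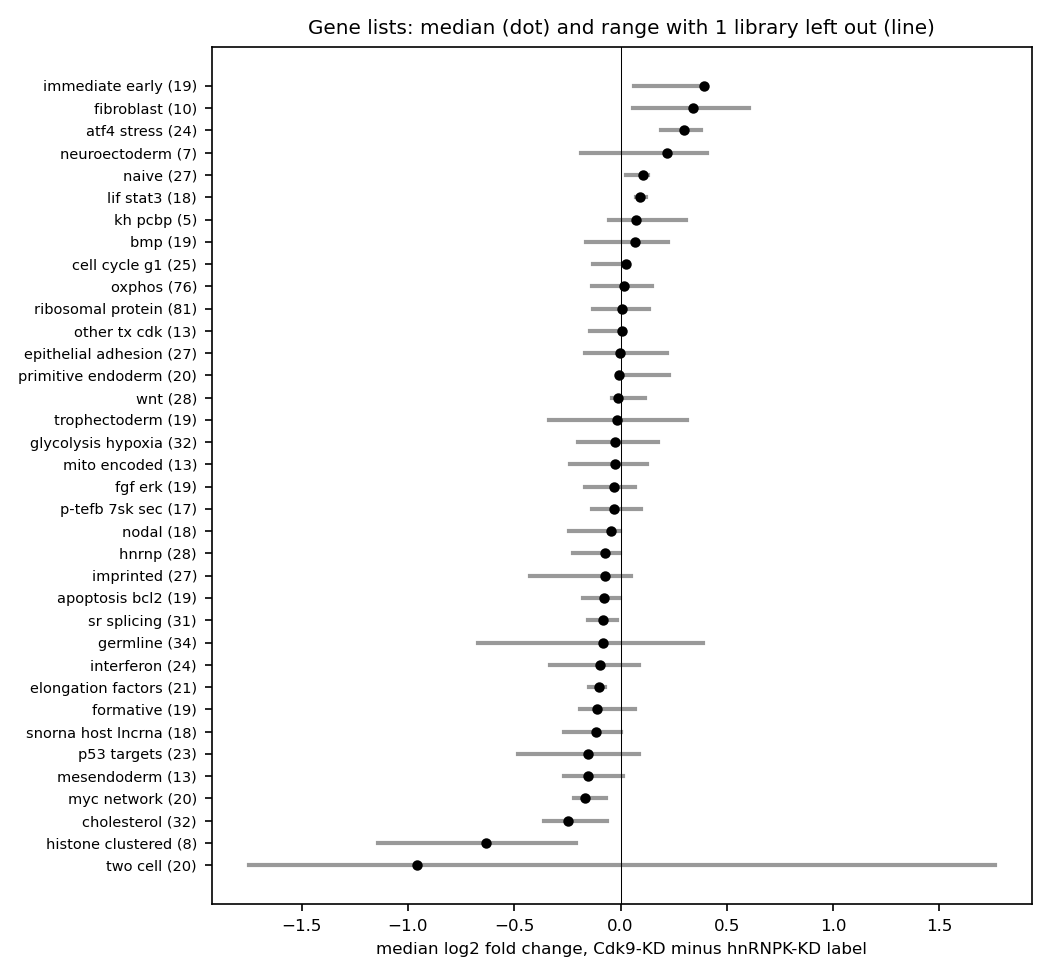
Median log2FC of the tested members of each of the 36 gene lists (dot, number of genes in brackets), with the range of the median when 1 of the 4 libraries is left out (line). The 2-cell list spans -1.75 to 1.76, while the ATF4 list stays between 0.19 and 0.38.

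Lists for housekeeping functions lay near 0. Of 81 ribosomal protein genes, 76 nuclear respiratory-chain genes, 13 mitochondrially encoded genes and 32 glycolysis and hypoxia genes, 0 passed an unadjusted p under 0.05, and their medians were 0.0080, 0.018, -0.024 and -0.024. With 1 library left out these stayed between -0.24 and 0.18 and took either sign. The genes with the smallest p were Rpl24, Ndufb7 (a chromosome 8 gene), mt-Atp8 and Hif1a, with log2FC values of -0.74, 0.31, -0.60 and -0.35. Rpl24 and mt-Atp8 were low, at 1.42 to 3.22 CPM and 3.04 to 4.75 CPM over both arms, with SEs of 0.39 and 0.30. Small nucleolar RNA hosts and long noncoding RNAs (18 genes, smallest p for Snhg3) had a median of -0.11 with 0 at that level, and of 0.0035 without Cdk9-KD 2. The epithelial list had a median of -0.0047, between -0.17 and 0.22 with 1 library left out. At an unadjusted p under 0.05, 1 gene, Epcam, lay lower and 1 higher (2.29% and 3.42% of all genes). The fibroblast list (10 genes tested) had a median of 0.34, which was 0.058 without Cdk9-KD 1, and 0 at that level, with Pdgfrb leading at 13.3 and 7.92 CPM against 8.27 and 6.46 CPM.

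The histone-cluster genes, whose transcripts mostly lack a poly(A) tail, had the second lowest median of the 36 lists, -0.63. Of the 8 tested, of 33 in the list, 7 were negative and 3 did not overlap in the lower direction (37.5%, against 14.3% of all genes). At an unadjusted p under 0.05, 1 lay lower and 1, Hist1h2bc, higher (2.29% and 3.42% of all genes). Hist1h2bc read 16.2 and 16.0 CPM in Cdk9-KD against 9.26 and 12.0 CPM. With 1 library left out the median ran from -1.14 to -0.21. The 3 that did not overlap in the lower direction, Hist1h1a, Hist1h2ae and Hist2h2be, read at most 1.28 CPM in the 4 libraries. The summed level of the 8 genes was low, and Hist1h2bc was its largest part. It was 25.7 and 21.7 CPM in Cdk9-KD against 22.5 and 19.3 CPM, so the sum did not lie lower in Cdk9-KD.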

How the data were processed

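RNA-seq measured polyadenylated RNA of E14 ESCs in 8 libraries, 150-bp paired-end reads. Trimmomatic and STAR (mm10, GENCODE vM23) were used by the authors before counting, and featureCounts 2.0.1 gave the whole-number counts that they deposited, 1 column per library. The version of STAR in the submitters' processing notes is 2.7.9a, and strand and multi-mapping settings are not given in the sources used here. Of 55335 genes, 16504 passed filterByExpr (minimum count 10, minimum total 15). One quasi-likelihood fit over the 4 groups (edgeR 4.0.16, R 4.3.3, TMM) gave the contrast Cdk9-KD minus hnRNPK-KD label, with Benjamini-Hochberg adjustment over all genes tested. Genes with adjusted p under 0.05 and absolute log2FC over 0.6, the study's limits, were called. DESeq2 1.42.0 and other settings were alternatives. CPM used TMM-scaled totals of the genes tested. Totals were 16709201 to 17719366 counts per library. Scripts were tested on simulated data.

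Named genes were Cdk9, Hnrnpk, all tested genes of the P-TEFb and KH lists, the 10 with the largest log2FC in each direction among called genes with average log2 CPM over 1 and no overlap between arms (filled by smallest p where none was called), and called members of each list, or the member with the smallest p where none was. A few genes that this rule names are not reported here. The contrast, the lists and the rule were chosen with earlier results of these data known. Symbols, positions, lengths and GC content came from GENCODE vM21 (GRCm38), which paired 55154 of the IDs with a symbol, and promoters from RefSeq (GRCm38.p6).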

Additional observations from a re-analysis of the deposited data

How the results depend on the processing

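Same-numbered libraries of the 2 arms had a correlation of deviations of 0.075 over 2 pairs, so the numbers are not shown to pair them. With a replicate block the count of called genes was 0, with 960 at an unadjusted p under 0.05, and the log2FC was -0.89 for Cdk9 and 0.20 for Hnrnpk. The count was 0 under every other scaling, filter, threshold and set of libraries tried with the quasi-likelihood test, with 489 to 1232 genes at an unadjusted p under 0.05, except when a library was left out. Then it was 0 to 6, with 672 to 1841 genes at that level, the 6 falling without Cdk9-KD replicate 1 (AI662270, Nefm, Nefl, 1700013H16Rik, Xlr3c and Gm18336, all lower), where the lone library is assumed to vary like the other groups. The likelihood ratio test gave 67, the exact test 49 and DESeq2 56, and with these Cdk9 was called, at a log2FC of -0.89, -0.89 and -0.90. With 1 library left out the log2FC of Cdk9 ran from -1.15 to -0.68.

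Signs turned for 13 of the 72 named genes. With 1 library left out the log2FC ran from -0.15 to 0.58 for Hnrnpk, -0.054 to 1.34 for Pcbp3, -0.52 to 0.14 for Ccnt2, -0.38 to 0.17 for Mepce, -0.47 to 0.097 for Aff4, -0.052 to 0.086 for Hexim2, -0.38 to 0.24 for Ell2, -0.15 to 0.083 for Eaf1, -0.48 to 0.14 for Ccnt1, -0.0018 to 0.051 for Mllt1, -0.22 to 0.27 for Pcbp1, -0.32 to 0.31 for Pcbp4 and -0.011 to 0.14 for Pcbp2. With library totals as scaling it was 0.0054 for Eaf1 and 0.0070 for Pcbp4. An alternative chosen after seeing the data, with a GC and length trend removed from each library, gave -0.062 for Hexim2, 0.018 for Ell2, -0.15 for Mllt1 and -0.097 for Pcbp1. Under it the smallest adjusted p by edgeR was 0.058, the unadjusted p was under 0.05 for 514 genes higher and 477 lower in Cdk9-KD (565 and 378 without it), and Cdk9 had a log2FC of -0.96. A refit without chromosome 8 genes, also chosen after seeing the data, gave 474 higher and 388 lower. Without Cdk9-KD replicate 2 they numbered 820 and 1021. List medians moved by more than the replicate SD under 70 alternatives, counted over lists and settings, in 29 of the 36 lists. The cause of these shifts was not tested. Depth limits genes near or under 1 CPM, such as Ell3, whose SE was 0.61.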
